A study of Mus musculus with 14 samples.

Results

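The genes described here are 7 members of the signalling chain that runs through the transcription factor STAT3: the receptor gene Osmr, Stat3 itself, the inhibitor gene Socs3, and 4 genes that STAT3 is known to induce, Timp1, Fgg, Chil1 and Lcn2. They are 7 of 34049 genes with any count, and all 7 were among the 24592 genes tested. Timp1, Fgg and Chil1 were chosen from measured values, because they were called lower at postnatal day 20 (P20) than at postnatal day 18 (P18) in the libraries labelled Irx5KO. The other 4 genes were chosen by their known link to STAT3. The measurements are bulk RNA sequencing of sorted hair follicle stem cells of the mouse, CD34-positive bulge cells that rest between hair growth phases. The groups are wild type (WT) and Irx5 knockout (Irx5KO) animals at each age, with 3 libraries each at P18 and 4 each at P20. No treatment is named, all groups share the trypsin digestion of back skin and the sort, and the labels give neither strain, allele construction, Cre driver nor the number of animals behind a library. The series title names IRX5 in DNA repair and stem cell activation, which is the question behind the comparison of genotypes.

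Cytokines of the interleukin-6 family, such as IL-6, LIF and oncostatin M, bind receptors that signal through Janus kinases. These kinases phosphorylate STAT3, which enters the nucleus and induces acute phase genes and its own inhibitor SOCS3. SOCS3 binds the receptor and kinase and ends the signal. In hair follicles, oncostatin M signalling through OSMR is known for keeping stem cells quiescent in mouse skin. STAT3 in keratinocytes is known for its role in wound repair and in entry into hair growth.

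Total estimated counts per library ranged from 13618367 to 70083873. All 12 bulge markers, among them Krt15, Cd34 and Lgr5, had counts in every library, with a summed level of 11500 to 47900 CPM (counts scaled to a common library size after TMM normalization, the scale of all CPM values here). Replicates of a group differed by more than sampling noise, and the labels do not say whether they are different animals, so a p-value here reflects library-to-library spread that could be technical. Each library carries a 6-digit code, with 2 codes at each age. At P18 the earlier code holds Irx5KO 1 and WT 1 and 2, and the later code Irx5KO 2 and 3 and WT 3. The P20 libraries numbered 3 and 4 shared the earlier code and those numbered 1 and 2 the later one, and age and code cannot be told apart. In the P20 libraries numbered 3 and 4, Irx5 reached 195 and 182 CPM under the Irx5KO label but 39.0 and 43.0 CPM under the WT label, so the targeted gene goes against the labels there. In the P20 libraries numbered 1 and 2 it was at 31.5 and 18.7 CPM in Irx5KO and at 126 and 73.8 CPM in WT. The deposited data of the library titled P18 WT 3 also carry the word het. The proliferation gene Mki67 was at 15.6 to 30.7 CPM in all P18 libraries. At P20, Mki67 reached 1352 and 1515 CPM in Irx5KO 3 and 4, and 503 and 180 CPM in WT 1 and 2, against 4.30 to 19.4 CPM in the other 4. Genotype names in the following text are the labelled ones.

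Because the 4 target genes had their lowest levels in the same age group, the 250 bases before their RefSeq start sites were searched on both strands for STAT motifs (TTCNNNGAA, the same half-sites TTC and GAA with 4 bases between them, and CTGGGAA, the core of STAT3 elements of acute phase genes) and for TGANTCA, a site of AP-1 factors. All 7 genes had a sequence in the RefSeq table of build GRCm38.p6. The windows shown are those that hold TTCNNNGAA or CTGGGAA, with the motif in capitals, each read 5′ to 3′ on the strand of its gene.
Socs3 (chr11:117969367-117969616, minus strand): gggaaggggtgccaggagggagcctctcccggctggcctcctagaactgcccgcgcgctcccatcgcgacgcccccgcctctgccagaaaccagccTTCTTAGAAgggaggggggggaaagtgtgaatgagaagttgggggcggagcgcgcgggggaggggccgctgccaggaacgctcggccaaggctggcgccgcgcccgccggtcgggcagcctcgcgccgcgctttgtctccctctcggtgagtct
Fgg (chr3:83007474-83007723, plus strand): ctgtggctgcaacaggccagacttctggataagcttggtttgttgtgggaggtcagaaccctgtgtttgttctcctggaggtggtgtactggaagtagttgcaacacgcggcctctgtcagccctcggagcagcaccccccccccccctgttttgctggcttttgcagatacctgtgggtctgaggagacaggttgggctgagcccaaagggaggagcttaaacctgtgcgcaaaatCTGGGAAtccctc
Chil1 (chr1:134181906-134182155, plus strand): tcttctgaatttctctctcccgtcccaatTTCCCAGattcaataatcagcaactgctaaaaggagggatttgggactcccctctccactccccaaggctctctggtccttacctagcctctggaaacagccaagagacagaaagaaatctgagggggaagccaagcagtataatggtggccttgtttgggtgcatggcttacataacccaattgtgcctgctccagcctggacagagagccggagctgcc
In Socs3 the palindrome TTCNNNGAA lay 154 to 146 bases before the start. A share of 7.02% of 32851 windows of this length held this motif. In Fgg, CTGGGAA lay 13 to 7 bases before the start, and in Chil1 its reverse complement lay 221 to 215 bases before the start. This motif was in 9.10% of all windows. Lcn2 held the half-sites with 4 bases between them 156 to 147 bases before its start, a motif in 5.85% of windows. Osmr, Stat3 and Timp1 held none of the 3 STAT motifs, and none of the 7 windows held TGANTCA, which was in 6.75% of all windows. The motifs do not overlap each other in these windows, and a match describes letters in a window, not a bound site. For Socs3, Lcn2 and Osmr the GENCODE gene model begins farther upstream than the RefSeq start used here, and for Chil1 farther downstream, so these windows lie elsewhere relative to that start.

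Levels of different genes were compared per transcript length, as TPM. In P18 WT libraries Socs3 was the most abundant of the 7, with a level of 597 ± 177 TPM (SD, n = 3), followed by Stat3 with 212 ± 85.9 TPM and Osmr with 68.1 ± 40.8 TPM. The target genes were lower, with Chil1 at 16.4 ± 5.11 TPM, Lcn2 at 8.48 ± 2.13 TPM, Timp1 at 7.09 ± 2.32 TPM and Fgg at 1.69 ± 0.501 TPM (SD, n = 3 each). Lcn2 and Timp1 were closer to each other than their SDs. In P20 WT libraries the signalling genes were still at 31.7 ± 11.8 TPM (Osmr), 258 ± 123 TPM (Stat3) and 495 ± 398 TPM (Socs3), while the 4 target genes had means from 0.162 TPM (Fgg) to 1.26 TPM (Chil1) (SD, n = 4 each). The receptor, the transcription factor and the inhibitor were thus measured well at both ages, whereas the targets were near the lower limit of counting at P20. In bulk samples, fewer cells of a type and less RNA per cell cannot be told apart.

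**Figure D1:**
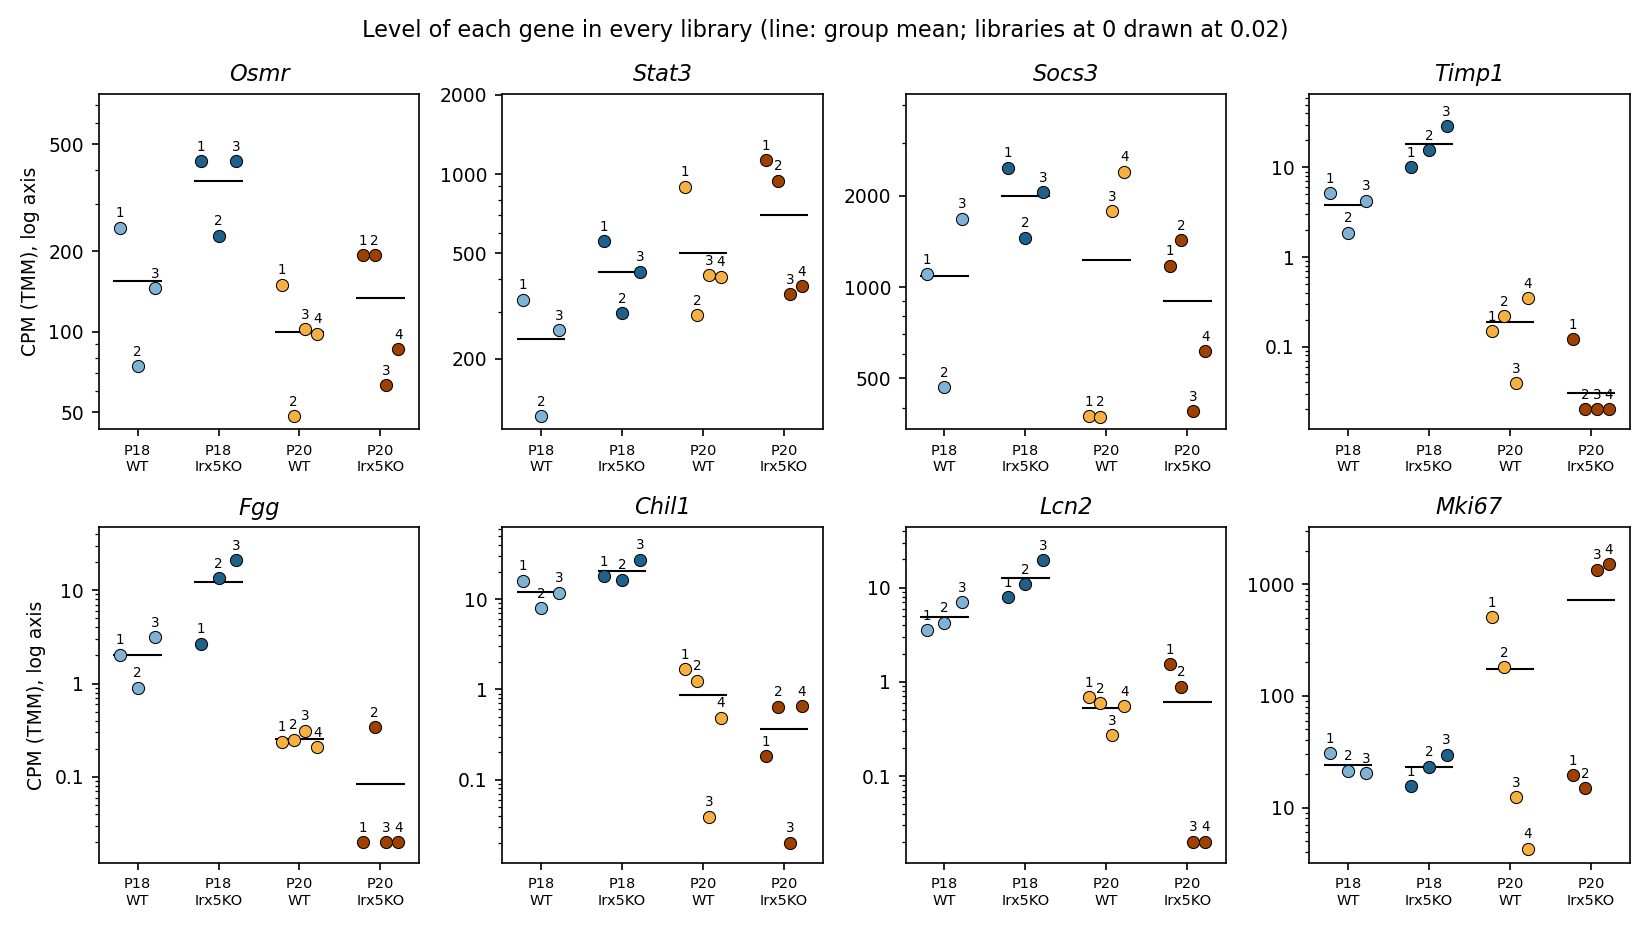
Level of each of the 7 genes and of Mki67 in every library, in CPM on a log axis, by group; numbers are library numbers, lines are group means, and libraries with no count are drawn at 0.02. Timp1, Fgg, Chil1 and Lcn2 are lower in every P20 library than in every P18 library of the same genotype, while Stat3 and Socs3 are spread widely within P20.

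Osmr (ENSMUSG00000022146.12, chromosome 15, 6813577 to 6874969, minus strand, mm10) encodes the receptor subunit that binds oncostatin M. At P18 it was at 433, 229 and 434 CPM in Irx5KO libraries 1 to 3 and at 245, 74.3 and 145 CPM in WT libraries 1 to 3. The P20 levels were 193.5, 193.0, 63.3 and 86.3 CPM in Irx5KO libraries 1 to 4 and 150, 48.3, 102.5 and 98.2 CPM in WT libraries 1 to 4. The order of the group means was P18 Irx5KO (365 ± 118 CPM), P18 WT (155 ± 85.6 CPM), P20 Irx5KO (134 ± 69.0 CPM) and P20 WT (99.7 ± 41.5 CPM), and all neighbours in this order overlapped. In WT the fitted change from P18 to P20 was -0.63 ± 0.47 on the log2 scale (SE) and did not pass the test (edgeR, adjusted p = 0.696). In Irx5KO, the contrast that chose the set, it was -1.45 ± 0.47, and every P20 library lay below every P18 library.

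Stat3 (ENSMUSG00000004040.16, chromosome 11, 100885098 to 100939540, minus strand) had its highest levels at P20. It was at 557, 297 and 426 CPM in P18 Irx5KO libraries 1 to 3 and at 334.5, 121 and 256 CPM in P18 WT libraries 1 to 3. The P20 values were 1128, 942.5, 350.0 and 377 CPM in Irx5KO libraries 1 to 4 and 894, 292, 415 and 408 CPM in WT libraries 1 to 4. The 3 highest values were therefore in libraries of the later P20 code, P20 Irx5KO 1 and 2 and P20 WT 1, and neighbouring groups overlapped. The change from P18 to P20 in WT was 1.08 ± 0.51 (log2, SE; adjusted p = 0.472), and that in Irx5KO was 0.71 ± 0.50. Stat3 overlaps Stat5a on the other strand, which had 143 to 2633 counts per library, and reads of their shared part cannot be assigned by strand here.

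Socs3 (ENSMUSG00000053113.3, chromosome 11, 117966079 to 117970047, minus strand) was at 2476, 1453 and 2057 CPM in P18 Irx5KO libraries 1 to 3 and at 1103, 466 and 1682 CPM in P18 WT libraries 1 to 3. At P20 it was at 1176, 1430, 390 and 613 CPM in Irx5KO libraries 1 to 4 and at 375, 373, 1778 and 2405 CPM in WT libraries 1 to 4. The P20 values thus formed a low set of 373 to 613 CPM, in Irx5KO 3 and 4 and WT 1 and 2, and a high set of 1176 to 2405 CPM, in Irx5KO 1 and 2 and WT 3 and 4. The low set holds the same 4 libraries that had 180 to 1515 CPM of Mki67, and the high set those with 4.30 to 19.4 CPM. The summed level of 21 immediate early and dissociation response genes, which belongs to no cell type and can rise during digestion, was 19400 to 35300 CPM in the low set and 44300 to 72500 CPM in the high set. The part of either measure in the Socs3 level was not tested. The change from P18 to P20 was 0.19 ± 0.64 in WT (log2, SE; adjusted p = 0.894) and -1.14 ± 0.63 in Irx5KO. The WT direction is not settled, since it turned to -1.53 ± 0.67 without the P20 libraries numbered 3 and 4 (adjusted p = 0.564) and was below 0 under the other scalings tried.

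**Figure D2:**
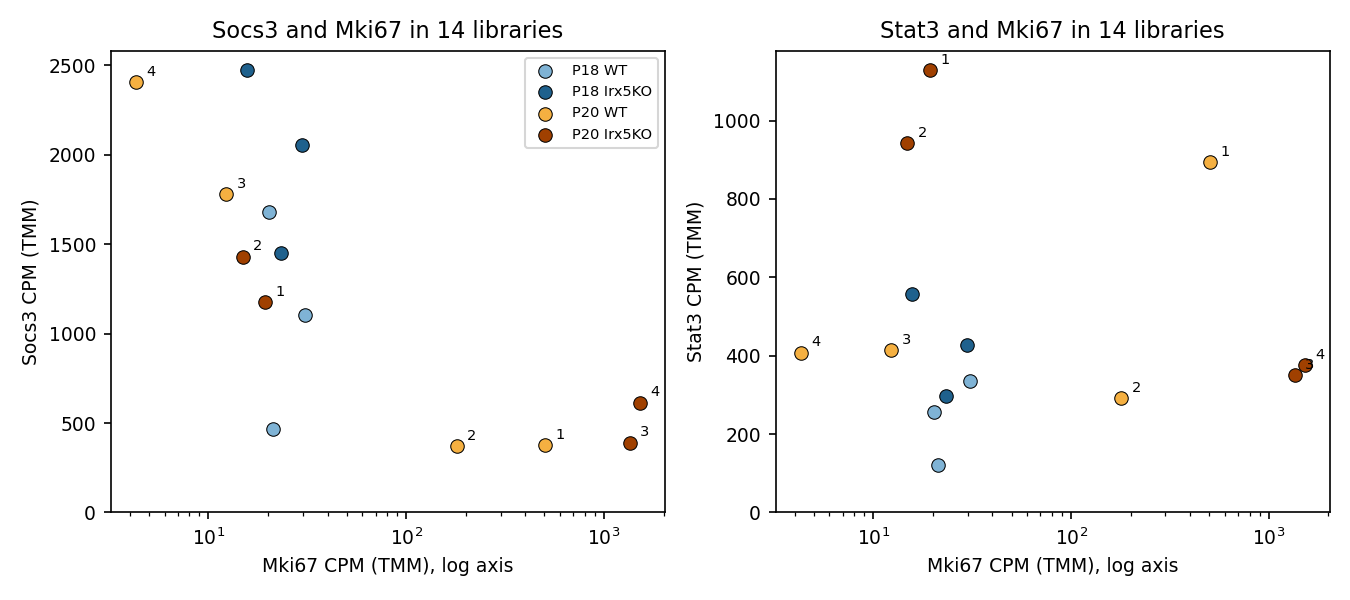
Socs3 (left) and Stat3 (right) in CPM against Mki67 in CPM on a log axis, 1 point per library, coloured by group, with library numbers at P20. The 4 P20 libraries with Mki67 at 180 CPM or more had Socs3 at 373 to 613 CPM, and the other 4 at 1176 to 2405 CPM; Stat3 does not separate in this way.

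Timp1 (ENSMUSG00000001131.11, chromosome X, 20870166 to 20874735, plus strand) encodes a secreted inhibitor of metalloproteinases. It was at 10.1, 15.6 and 29.0 CPM in P18 Irx5KO libraries 1 to 3 and at 5.18, 1.87 and 4.25 CPM in P18 WT libraries 1 to 3. At P20 it was at 0.149, 0.218, 0.039 and 0.346 CPM in WT libraries 1 to 4, which are 5, 7, 1 and 5 counts. In P20 Irx5KO only library 1 had any count, with 4 (0.121 CPM), and the other 3 had 0, where 3 counts would be 0.0922, 0.223 and 0.177 CPM. The order of the group means was P18 Irx5KO (18.2 ± 9.74 CPM), P18 WT (3.77 ± 1.71 CPM), P20 WT (0.188 ± 0.129 CPM) and P20 Irx5KO (0.0302 ± 0.0604 CPM), and only the last pair overlapped. The gene lies within Syn1 on the other strand, which had 0 to 96 counts.

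Fgg (ENSMUSG00000033860.13, chromosome 3, 83007724 to 83015049, plus strand) encodes the gamma chain of fibrinogen, an acute phase protein made mainly by liver. It was at 2.66, 13.5 and 21.0 CPM in P18 Irx5KO libraries 1 to 3 and at 2.04, 0.905 and 3.15 CPM in P18 WT libraries 1 to 3. At P20 the WT libraries had 0.239, 0.249, 0.312 and 0.208 CPM, which are 8, 8, 8 and 3 counts, while in Irx5KO only library 2 had any count, with 11 (0.338 CPM). The ranges of the P18 groups overlapped, as did those of the P20 groups. Summed over 6 hepatocyte markers, the level was 0.909 to 1.69 CPM in the P18 Irx5KO libraries and 2.09 to 9.56 CPM in the P18 WT libraries. The defining liver gene Alb was at 0 in 5 of the 14 libraries and at no more than 2.04 CPM in the others. The part of liver RNA in the Fgg level was not tested.

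Chil1 (ENSMUSG00000064246.10, chromosome 1, 134182176 to 134190181, plus strand) encodes a secreted chitinase-like protein without chitinase activity. It was at 17.9, 16.5 and 27.5 CPM in P18 Irx5KO libraries 1 to 3 and at 16, 7.92 and 11.8 CPM in P18 WT libraries 1 to 3. At P20 it was at 0.181, 0.646, 0 and 0.649 CPM in Irx5KO libraries 1 to 4 and at 1.67, 1.25, 0.039 and 0.485 CPM in WT libraries 1 to 4. The 2 P18 groups did not overlap, and the P20 groups did.

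Lcn2 (ENSMUSG00000026822.14, chromosome 2, 32384633 to 32388252, minus strand) encodes a lipocalin that binds bacterial siderophores and is known as an acute phase gene of epithelia and neutrophils. It was at 7.88, 10.9 and 19.6 CPM in P18 Irx5KO libraries 1 to 3 and at 3.56, 4.27 and 7.02 CPM in P18 WT libraries 1 to 3. At P20 it was at 1.54, 0.892, 0 and 0 CPM in Irx5KO libraries 1 to 4 and at 0.686, 0.592, 0.273 and 0.554 CPM in WT libraries 1 to 4. The P18 groups did not overlap, the P20 groups did, and the Irx5KO libraries at 0 were the same 2 that had the most Mki67.

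The age comparison in WT uses P18 and P20 libraries other than those that chose Timp1, Fgg and Chil1. All 4 target genes were lower in every P20 WT library than in every P18 WT library, which held for 5.23% of the genes tested. Timp1 and Fgg, with at most 7 and 11 counts in a P20 library, passed the expression filter only through their P18 levels. For Timp1 and Fgg the filter therefore favoured a lower level at P20. The fitted changes were -4.34 ± 0.95 for Timp1, -3.76 ± 0.90 for Chil1, -3.22 ± 1.07 for Lcn2 and -2.99 ± 1.14 for Fgg (log2, SE). None passed the test (edgeR, adjusted p = 0.156, 0.201, 0.31 and 0.373), and neither did any other gene, with 0% of 24592 called. At an unadjusted p under 0.05 edgeR gave 1989 higher and 510 lower genes. DESeq2 called 522 higher and 160 lower, the latter 1.49% of the genes it gave an adjusted p. Among these was Chil1 (-3.98 ± 0.89, DESeq2 adjusted p = 0.000938), while it gave no adjusted p to Timp1, Fgg and Lcn2. Without the P20 libraries numbered 3 and 4, edgeR called Timp1 (-4.33, adjusted p = 0.00847), Chil1 (-3.01, adjusted p = 0.00996) and Lcn2 (-2.93, adjusted p = 0.0416) but not Fgg (-3.04, adjusted p = 0.446), where 0.0906% of genes were called lower. The direction held in every WT library, and the call depended on the tool and on these libraries. Over all 24592 genes tested the median change in WT was -0.40, in the direction of the target genes, while over genes with at least 8 CPM it was 0.42.

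In Irx5KO, the contrast used to choose the set, the changes are given as a description. They were -8.79 ± 1.16 for Timp1, -6.97 ± 1.35 for Fgg, -5.76 ± 0.98 for Chil1 and -4.34 ± 1.11 for Lcn2 (log2, SE). Timp1, Fgg and Chil1 were called lower among 82 genes (0.333% of those tested). Since this contrast chose Timp1, Fgg and Chil1, their calls and p-values in it are no test. Lcn2, chosen by its link to STAT3, lay outside the threshold (edgeR, adjusted p = 0.0936). For Timp1 and Fgg the P20 sums were 4 and 11 counts over 4 libraries, so the sizes depend on very few reads. In every library pair of the 2 ages, Timp1, Fgg, Chil1, Lcn2, Osmr and Socs3 were lower at P20, a pattern shared by 9.19% of the genes tested. The limit set by the expression filter for Timp1 and Fgg applies here too.

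**Figure D3:**
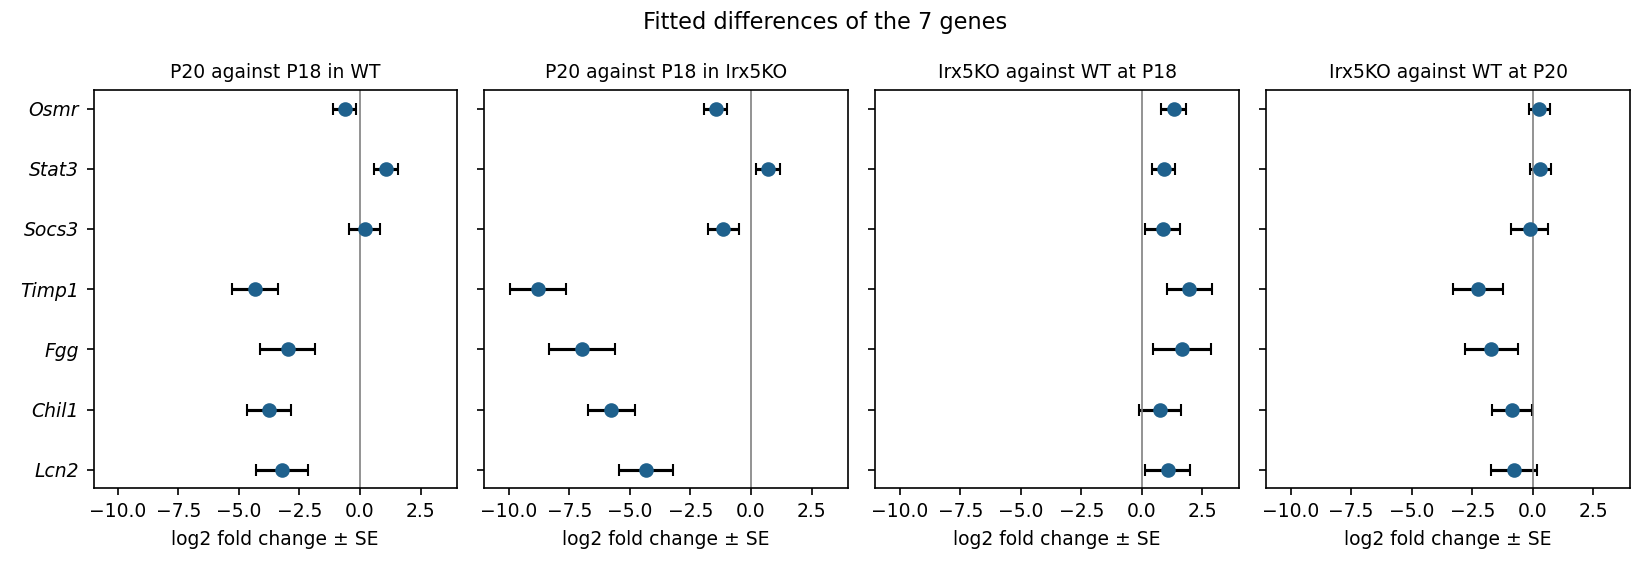
Fitted log2 fold changes of the 7 genes (points) with their SE (bars) in the 2 age comparisons and the 2 genotype comparisons. In WT the 4 target genes lie between -4.34 and -2.99 with Stat3 at 1.08, and in Irx5KO, the contrast that chose 3 of them, between -8.79 and -4.34.

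The comparison of Irx5KO with WT at P18 asks whether loss of Irx5 changes these genes before hair growth starts. The fitted difference of Irx5 itself was -0.63 ± 0.79 (log2, SE; edgeR, adjusted p = 0.885), and its ranges overlapped. All 7 members had a fitted difference above 0. Osmr was 1.31 ± 0.52, Lcn2 1.06 ± 0.94, Stat3 0.89 ± 0.49 and Socs3 0.86 ± 0.72 higher on the log2 scale in Irx5KO (SE), and none passed the test (edgeR, adjusted p = 0.825, 0.833, 0.825 and 0.828). For the genes chosen on these libraries, the values were 1.95 ± 0.93 for Timp1, 1.66 ± 1.20 for Fgg and 0.75 ± 0.87 for Chil1. Timp1, Chil1 and Lcn2 were higher in every Irx5KO library than in every WT library, as were 9.44% of the genes tested. No gene was called (0%), with 502 higher and 693 lower at an unadjusted p under 0.05 in edgeR and 8 higher and 14 lower called by DESeq2. Well expressed genes had a median difference of 0.35 in the same direction. Within the earlier code, where Irx5KO has only library 1, the difference of Socs3 was 1.66 ± 0.60 (adjusted p = 0.458), and within the later code, where WT has only the library marked het, it was 0.06 ± 0.62 (adjusted p = 1).

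At P20 the 4 genes open to a test showed fitted differences of 0.31 (Stat3), 0.27 (Osmr), -0.13 ± 0.76 (Socs3) and -0.78 ± 0.96 (Lcn2) on the log2 scale, each with an adjusted p of 1 (edgeR). No gene was called (0%), with 114 higher and 890 lower at an unadjusted p under 0.05, and DESeq2 called 15 higher and 73 lower. The values within the codes ran in opposite directions for Socs3. In the libraries numbered 3 and 4, where Irx5 goes against the labels, Socs3 was lower in those labelled Irx5KO, with a fitted log2 difference of -2.06 ± 0.53 (edgeR, adjusted p = 0.0267), as 2.6% of the genes tested were called lower. In the libraries numbered 1 and 2 it was 1.80 ± 0.52 higher in Irx5KO (adjusted p = 0.256), where 0.472% of genes were called in either direction. In both codes Socs3 was higher in the pair of libraries with less Irx5 and less Mki67. The difference between the codes was not tested.

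Lcn2 was at 0 in both Irx5KO libraries numbered 3 and 4 and had 15 counts in the WT libraries numbered 3 and 4. The WT level was 3.8-fold a floor of 3 counts over the Irx5KO pair. Lcn2 was called lower in the pair labelled Irx5KO (edgeR, adjusted p = 0.0464), as were 2.6% of the genes tested. This pair had more Irx5 than the pair labelled WT. In the libraries numbered 1 and 2 it was 0.93 ± 0.85 higher in Irx5KO (log2, adjusted p = 1). For Timp1 and Fgg the levels in WT 3 and 4 were 1.52-fold and 2.79-fold the same floor, on 6 and 11 counts. These ratios leave out the counting error of the WT libraries and the library-to-library spread, so they are not lower bounds. Over all P20 libraries the fitted values, as a description, were -2.28 ± 1.03 for Timp1, -1.72 ± 1.10 for Fgg and -0.85 ± 0.84 for Chil1.

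The age change in Irx5KO minus that in WT was -1.04 for Osmr, -0.58 for Stat3, -0.99 for Socs3 and -1.84 for Lcn2 on the log2 scale, and none passed the test (edgeR, adjusted p = 1 each). As a description, it was -4.23 ± 1.39 for Timp1, -3.37 ± 1.63 for Fgg and -1.60 ± 1.21 for Chil1. No gene of the 24592 was called (0%), with 153 higher and 295 lower at an unadjusted p under 0.05, and DESeq2 called 4 higher and 9 lower. Well expressed genes had a median of -0.37 here. The fitted values of Timp1 and Fgg rest on a higher mean in Irx5KO than in WT at P18 and on counts at or near 0 at P20.

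The pathway was also followed in lists of genes chosen with earlier results of these data known. These lists include members: Osmr is among the receptors, Stat3 among the STATs, Socs3 among the inhibitors and Lcn2 among the lipocalins. Osmr, Stat3 and Socs3 are also among the transcription and survival targets of STAT3, which share genes with the immediate early list. Of 16 tested ligand genes that activate STAT3, 3 were fitted higher and 13 lower at P20 in WT, with a median of -1.32 against -0.40 over all genes, and 0 were called by edgeR. In Irx5KO 7 were fitted higher and 8 lower, with a median of -0.135 against -0.046 over all genes. The WT pair with the smallest p was Lif (-1.54 ± 0.61, adjusted p = 0.39) and Il6 (-2.22 ± 1.02, adjusted p = 0.493), the cytokine that gives the family its name. Il6 was at 8.26, 3.00 and 24.2 CPM in P18 WT libraries 1 to 3 and at 2.18, 0.53, 3.94 and 3.53 CPM in P20 WT libraries 1 to 4. In Irx5KO it was at 22.2, 57.1 and 45.1 CPM in P18 libraries 1 to 3 and at 2.45, 2.06, 0.668 and 0 CPM in P20 libraries 1 to 4. The Irx5KO age groups did not overlap for Il6, and the WT groups did.

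Of 16 receptor genes 6 were fitted higher and 10 lower in WT (median -0.41), of 11 Janus kinases and STATs 5 were higher and 6 lower, and of 16 inhibitors 14 were higher and 2 lower (median 0.401), with none called by edgeR in any list. In this WT comparison the median was -0.40 over all genes and 0.42 over genes with at least 8 CPM, close to that of the inhibitors. Of 25 tested acute phase genes, a list that includes Timp1, Fgg, Chil1 and Lcn2, 3 were fitted higher and 22 lower in WT with a median of -0.945, and none was called by edgeR, while DESeq2 called Chil1 as given above. In Irx5KO 7 were higher and 18 lower, and Timp1, Fgg and Chil1, which the rule chose there, were the only ones called by edgeR. Of the 22 transcription and survival targets of STAT3, 18 were fitted higher and 4 lower in WT, with a median of 0.598. In the same comparison all 21 immediate early and dissociation response genes were fitted higher (median 0.866), and in Irx5KO 4 were higher and 17 lower (median -0.404); the part of this response in the targets was not tested. None of the targets was called by edgeR in WT: Myc, a driver of growth, was 1.85 ± 0.56 (adjusted p = 0.273), and Bcl3, a co-factor of NF-kB, was -1.60 ± 0.56 (adjusted p = 0.344). In Irx5KO the same list had 10 higher and 12 lower, with Cebpd, a transcription factor of the acute phase response, at -2.15 ± 0.50 and Bcl3 at -2.40 ± 0.57 (adjusted p = 0.0616 and 0.0853). The 23 tested TIMPs, metalloproteinases and partners had 10 higher and 13 lower in WT, and 3 higher and 20 lower in Irx5KO. Timp1, which the rule chose in Irx5KO, was the only one called there by edgeR. The 8 tested genes of a list of chitinase-like genes and Il13ra2 had 1 higher and 7 lower in WT, and the 9 tested lipocalin genes 1 higher and 8 lower, with none called by edgeR; Chil1, which DESeq2 called, is in the first of these lists.

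Between genotypes at P18, 21 of the 22 transcription and survival targets were fitted higher in Irx5KO, with a median of 0.968. Osmr, Stat3 and Socs3 are counted in this list. The median was -0.164 over all genes but 0.35 over genes with at least 8 CPM. Also fitted higher were 15 of 16 inhibitors and all 21 immediate early and dissociation response genes, with none called by edgeR in any of these lists. The summed level of the immediate early genes was 37500 to 52400 CPM in P18 Irx5KO and 9060 to 38000 CPM in P18 WT, and its part in these differences was not tested.

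The genes whose pattern over the 14 libraries was most like that of each member were found by the root mean square difference of centred log2 CPM among 13274 protein-coding genes. For Timp1 they were Fgg (1.22), Plscr1 (1.27), Chil1 (1.29), Snai3 (1.31) and Lcn2 (1.36). For Fgg they were Sectm1a (0.82), Plscr1 (1.18), Timp1 (1.22), Snai3 (1.24) and Itga2b (1.25). Fgg, Chil1 and Lcn2 were thus among the 5 nearest to Timp1, while Chil1 was not among the 5 nearest to Fgg. All genes share these libraries, whose depths differ, and the same scaling. Timp1, Fgg and Chil1 were chosen because they were lower at P20 in the Irx5KO libraries, which are part of this measure. Their nearness to each other follows in part from that choice. For Chil1 the nearest genes were Ppm1j (1.12), Ptgdr (1.13), Timp1 (1.29), Pdlim4 (1.43) and Fgg (1.45), and for Lcn2 Ppm1j (0.933), Rragd (0.952) and Trim34a (0.957). The signalling genes had smaller differences from their nearest genes, none of which was in the set. These differences were not scaled to the spread of each gene over the libraries. That spread (root mean square of centred log2 CPM) was 0.811 to 0.994 for Osmr, Stat3 and Socs3 and 2.52 to 3.12 for the target genes. The smaller differences therefore do not show a closer likeness of pattern. Osmr was most like Slc20a1 (0.212), Cbarp (0.31) and H2-K1 (0.311), Stat3 most like Nfat5 (0.181), Gnl3 (0.182) and Pxn (0.206), and Socs3 most like Ier5l (0.337), Plat (0.401) and Postn (0.419). Between members, the difference of Stat3 from Timp1 was 3.49 and that of Osmr from Socs3 was 0.785.

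The estimated counts are given per transcript, and a pattern noticed after the values were seen concerned which transcripts of Osmr and Chil1 carried them. Transcripts annotated as retained introns held 55.7% to 73.8% of the Osmr estimated counts in P18 libraries and 21.2% to 58.5% in P20 libraries. Over all genes this share was 8.16% to 13.1% at P18 and 4.30% to 8.90% at P20, so the Osmr share was higher than that of all genes in each library. The full coding transcript of Osmr, of 5491 nt, held 26.1% to 44.3% of its counts at P18 and 38.6% to 78.8% at P20. In P18 libraries Chil1 counts lay mostly on a coding transcript of 1645 nt, with a share of 41.5% to 67.3%. A coding transcript of 585 nt, at 0 in all 6 P18 libraries, held 82.1% to 100% of the Chil1 counts in P20 Irx5KO 1 and 2 and P20 WT 1 and 4, on 6, 21, 46 and 7 counts. In P20 WT 2 and P20 Irx5KO 4 the 1645 nt transcript held 75.0% and 100%. Shares from so few counts are uncertain, and kallisto divides reads between overlapping transcripts by a model. Socs3 had at least 99.8% of its counts on 1 coding transcript, and Timp1 and Fgg counts were all on coding transcripts.

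**Figure D4:**
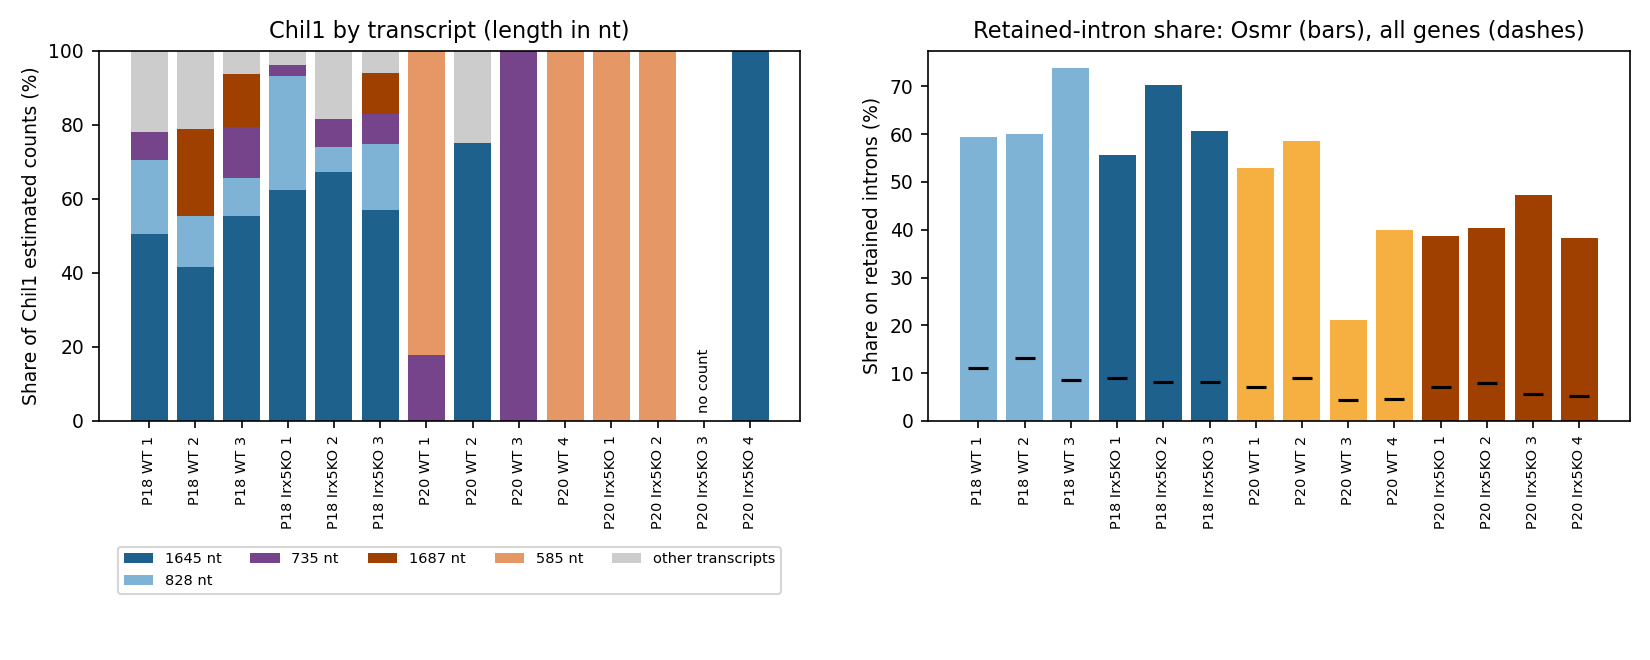
Left, share of Chil1 estimated counts by transcript, named by length in nt, in each library. Right, share of Osmr estimated counts on transcripts annotated as retained introns (bars, coloured by group) and the same share over all genes (dashes): the Osmr bars run from 55.7% to 73.8% at P18 and from 21.2% to 58.5% at P20.

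Some of the target genes are also made by immune, stromal or liver cells. The 7 macrophage markers summed to 19.2 to 29.2 CPM over the 6 P18 libraries, and to 8.29 to 19.9 CPM in P20 WT and 4.90 to 23.7 CPM in P20 Irx5KO. The 5 endothelial markers summed to 22.8 to 56.0 CPM in P18 Irx5KO, 34.5 to 51.0 CPM in P18 WT, 4.54 to 31.6 CPM in P20 Irx5KO and 7.46 to 24.7 CPM in P20 WT. In WT all 5 tested macrophage and all 5 endothelial markers were fitted lower at P20, with none called by edgeR. In Irx5KO 4 of 5 tested macrophage markers were fitted higher and 4 of 5 endothelial markers lower. The sum of the 7 macrophage markers in Irx5KO was nevertheless 21.7 to 29.2 CPM at P18 and 4.90 to 23.7 CPM at P20. All 6 T cell markers were fitted lower at P20 in both genotypes, with a median of -1.36 in WT and -1.40 in Irx5KO, and their sums were 218 to 766 CPM in P18 WT, 64.8 to 625 CPM in P20 WT, 170 to 203 CPM in P18 Irx5KO and 34.8 to 235 CPM in P20 Irx5KO. The most abundant of them, Thy1, was at 30.1 to 717 CPM over the 14 libraries (median 159). The others had medians from 1.83 CPM (Trdc) to 18.3 CPM (Cd3d), so the sums mainly follow Thy1. Of 5 mast cell markers 4 were fitted lower in each genotype. All 6 tested neutrophil markers were fitted lower in WT (median -1.62), and in Irx5KO 3 were higher and 3 lower. The part of these cells in the result was not tested. The macrophage genes C1qa and C1qb were each at 0 in 7 of the 14 libraries, and the endothelial gene Emcn in 5. More abundant markers of the same lists had counts in every library. These were the macrophage genes Cd68 (2.23 to 22.7 CPM) and Csf1r (1.56 to 8.34 CPM) and the endothelial gene Pecam1 (3.83 to 51.1 CPM). The 7 neutrophil markers summed to 0.538 to 2.59 CPM in P18 Irx5KO and 2.20 to 13.1 CPM in P18 WT, ranges that overlap. Among them S100a8 was at 0 in 8 of the 14 libraries. The 7 fibroblast and dermal papilla markers summed to 91.9 to 174 CPM in P18 Irx5KO and 132 to 169 CPM in P18 WT. At P20 they summed to 55.7 to 331 CPM in Irx5KO and 93.4 to 389 CPM in WT. The part of neutrophils or fibroblasts in the levels of Lcn2 and Timp1 was not tested.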

How the data were processed

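Per the labels' protocols, total RNA of flow-sorted cells (CD34-positive, positive for a marker written CD45f, Ly-6A/E-negative) was sequenced as single-end reads, and kallisto 0.46.2 was run. The submitters' processing notes also name mm10 and DESeq2. The authors deposited an estimated count and a TPM value per transcript for each library, per the file headers. Transcripts were matched to GENCODE genes of mm10 (116816 of 118489), and estimated counts were summed per gene and rounded to whole numbers. Unmatched transcripts, 1.19% to 2.59% of the counts, were left out. Tests on these counts used edgeR 4.0.16 (R 4.3.3), with filterByExpr at its defaults, TMM normalization, robust quasi-likelihood tests over all 14 libraries and Benjamini-Hochberg adjustment over 24592 genes, at a threshold of 0.05. The 6-digit code within age was a covariate in genotype comparisons, and a fit with 1 coefficient per code and genotype gave values within codes. SEs are derived from the F statistic and are approximate. Sums of list levels and group comparisons of CPM use TMM library sizes, and a floor is 3 counts, which covers counting error only. Fits were run on simulated counts with the same spread for every gene and no code effect. These runs do not show how the fits behave at the spread of the libraries here.

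The members and gene lists were chosen with earlier results of these data known. Named in the text are the members, Irx5, Mki67, called list members or else the pair with the smallest p, abundant markers, and the 5 (or, for genes chosen by function, 3) genes most alike in pattern whose log2 CPM averaged 1 or more. Other markers named at 0 were chosen after their values were seen. Same-numbered libraries are not said to share an animal or batch; their deviations correlated at 0.129 to 0.362 between the P18 genotypes and at 0.288 to 0.737 between the WT ages, so replicate number may pair these, and at 0.0327 to 0.387 and 0.0477 to 0.128 in the other comparisons. DESeq2 1.42.0, other scalings, no filter, the replicate block, no code term, and leaving out libraries were the alternatives.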

Additional observations from a re-analysis of the deposited data

Results flagged for a closer look

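In the P20 Irx5KO group of 4, Timp1 was at 0.121 CPM in library 1 and at 0 in the other 3, and Fgg was at 0.338 CPM in library 2 and at 0 in the other 3. These values, 4 and 11 counts, are listed because a single library differed from the other 3. With 3 libraries at 0, any count in the fourth would be listed, so the chance rate of about 1 in 20 groups does not apply. Timp1 at 0.121 CPM is also under the level of 3 counts in Irx5KO 3 and 4, at 0.223 and 0.177 CPM, so it cannot be set apart from those libraries.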

How the results depend on the processing

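In WT from P18 to P20, 6 of the 7 members kept their direction under all 21 alternatives. Timp1 ranged from -4.74 to -4.0, Chil1 from -4.30 to -3.01, Lcn2 from -3.87 to -2.93, Fgg from -3.68 to -2.84, Osmr from -1.06 to -0.25 and Stat3 from 0.65 to 1.34 (log2). The exception was Socs3, which changed sign to -0.095 with RLE scaling, -0.171 with TMM on well expressed genes, -0.0336 with no filter, -0.0949 with DESeq2, -0.106 with the replicate block, -1.53 without the P20 libraries numbered 3 and 4, and -0.172 without the 3 libraries with the highest TMM factors (P18 WT 1, P18 WT 2 and P20 WT 2). Leaving out 1 library at a time gave Socs3 -0.363 to 0.486, with a negative sign without P18 WT 2, P18 Irx5KO 2, P20 WT 3 or P20 WT 4. The cause was not tested.

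Genes called higher and lower in WT were 19 and 21 with RLE, 17 and 31 with TMM on well expressed genes, 39 and 27 with no filter, 522 and 160 with DESeq2, 80 and 25 without the P20 libraries numbered 3 and 4, and 0 and 2 without these 3 libraries. Without 1 library they were 0 to 196 and 0 to 53, above 0 without P18 WT 2, P18 WT 3, P18 Irx5KO 2 or P20 WT 2. In Irx5KO, against 19 and 82, they were 144 and 219, 150 and 236, 110 and 195, 719 and 671, 87 and 197, and 133 and 203 under the same settings, 51 and 166 with the replicate block, and 3 to 136 and 25 to 186 without 1 library. These counts moved by over 1.5 times without P18 Irx5KO 1, 2 or 3, P18 WT 2 or 3, P20 Irx5KO 2 or 3, or P20 WT 2. Timp1 and Chil1 were called lower in Irx5KO under all 21 alternatives and Fgg under 18, failing without P18 Irx5KO 2, P18 Irx5KO 3 or P20 Irx5KO 3. Timp1, Fgg and Chil1 were chosen in this contrast, so these calls are a description and no support for the fall. Lcn2 was called there under 2 of 21, DESeq2 and without the P20 libraries numbered 3 and 4. The replicate block changed no call of a member.

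Between genotypes at P18, 12 and 105 genes were called with no filter, 8 and 14 with DESeq2, 1 lower within the earlier code, 1 higher within the later code, and 0 to 1 lower without 1 library. At P20 they were 18 and 208 with no filter, 15 and 73 with DESeq2, 388 and 640 within the earlier code, 15 and 101 within the later code, and 24 and 95 without the libraries numbered 3 and 4. For the difference of age changes they were 11 and 10, 4 and 9, and 2 and 24 without the libraries numbered 3 and 4, with 0 to 1 higher without 1 library. Members that changed sign at P20 were Lcn2 (0.253 with no code term, 0.925 within the later code, 0.932 without libraries 3 and 4), Socs3 (1.80 within the later code, 1.81 without libraries 3 and 4), Osmr (-0.425 within the earlier code, -0.015 without the 3 libraries with the highest TMM factors), Stat3 (-0.18 within the earlier code) and Chil1 (0.537 within the earlier code). Without 1 library, Osmr ranged from -0.0944 to 0.53 and Stat3 from -0.00182 to 0.54, both negative without P20 WT 2, and Socs3 from -0.868 to 0.646, positive without P20 Irx5KO 3, P20 Irx5KO 4 or P20 WT 4. Socs3 in the difference of age changes became 0.93 without libraries 3 and 4. Depth limits Timp1, Fgg, Chil1 and Lcn2 at P20, where 3 counts correspond to 0.0895 to 0.223 CPM.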
